A study of Cymbidium longibracteatum with 2 samples.

Results

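In leaves of the orchid Cymbidium longibracteatum, 217 assembled transcripts (unigenes) of 61101 stood far higher in a yellow-leaved variant than in its green parent. They were chosen by their measured levels: an FPKM of at least 10 in the yellow library and a log2 ratio of yellow to green, on FPKM + 1, of at least 4, which is 16-fold. FPKM is the number of sequenced fragments scaled to transcript length and sequencing depth. It does not by itself make libraries comparable: with both rescaled to equal sums, 190 of the 217 pass the same limits. That count depends on the most abundant yellow unigene, which is itself among the 217. With it left out before rescaling, 212 of the other 216 pass. Because the values themselves picked these unigenes, their excess in yellow is a description and was not tested.

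RNA was sequenced from 2 leaf libraries. The yellow library came from a variant, labelled a mutant, that arose as a colour change among rhizomes in tissue culture and was propagated until its leaves kept a differently coloured margin. The green library came from the parent, 'Longchangsu'. Plants of both kinds had spent 1 year in a nursery kept at 25 °C in the light period and 20 °C at night, and the 5 youngest leaves of a plant were mixed for RNA. There is 1 library per leaf colour, how many plants each holds is not stated, and leaf colour, individual plant and library cannot be told apart. The variant is a clonal line, so the library describes that line. The deposited values summed to 1069855 FPKM in yellow and 947801 FPKM in green, and read depth is unknown.

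A young leaf turns green as its proplastids become chloroplasts, a process that needs proteins encoded in the nucleus and in the plastid, and chlorophyll to fill the light-harvesting complexes. Where this process is disturbed the carotenoids show through, and signals from the plastid are known to alter nuclear transcription. Orchids with coloured leaf margins are prized as ornamentals. The table ties no identifier to a gene, so whether the 217 unigenes belong to any of these processes is unknown. Leaf marker genes could not be checked, nor whether every unigene comes from the orchid itself. Identifiers are given as deposited: the part before _g names a component, and the number after it a unigene within that component.

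The 217 unigenes make up 1.63% of the 13324 unigenes that reached FPKM 10 in yellow. The median level of the 217 was 49.3 FPKM in yellow, with quartiles of 26.2 and 106 FPKM. In green their median was 0.369 FPKM, with quartiles of 0 and 1.87 FPKM. Over all 13324 unigenes the median level was 27.8 FPKM in yellow and 25.1 FPKM in green. The median log2 ratio was 4.68 for the 217 and 0.13 for the 13324, a gap that the rule sets. Of the 217, 84 passed a log2 ratio of 5 (32-fold), 36 passed 6 (64-fold), 9 passed 7 (128-fold) and 1 passed 8 (256-fold). The ratio limit alone keeps out any unigene below 15 FPKM in yellow, so the minimum of 10 removed none.

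**Figure D1:**
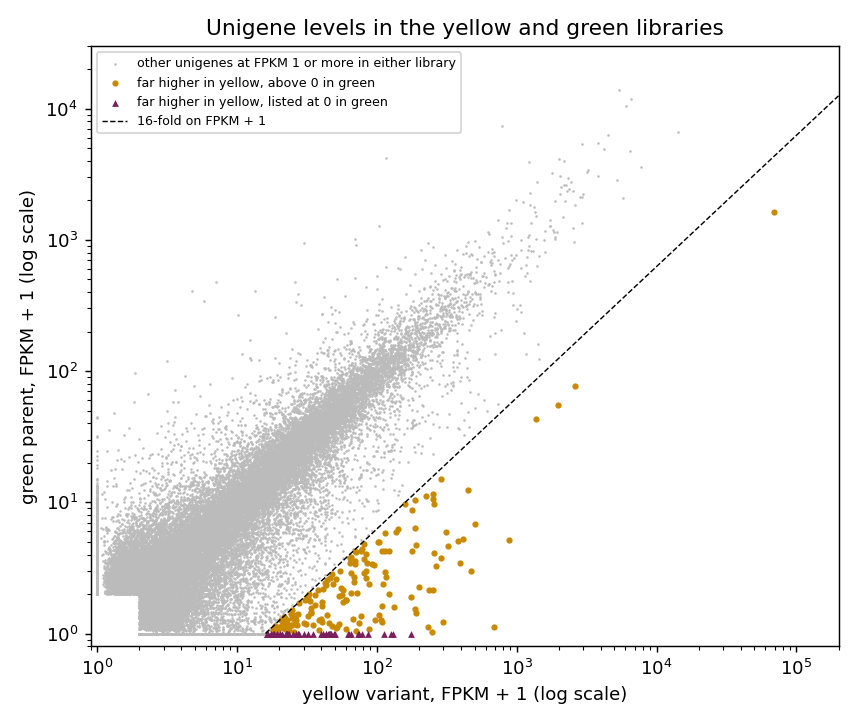
Level of each unigene in the yellow library (horizontal axis, FPKM + 1, log scale) and the green library (vertical axis, FPKM + 1, log scale); grey points are other unigenes that reached FPKM 1 in a library, coloured points the 217 far higher in yellow, and the dashed line marks 16-fold. The 217 lie at or below the line, and 56 of them, drawn as triangles, are listed at 0 in green.

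Values near the limit pass from inside to outside without a gap. Just inside, c32996_g1 had 20.7 FPKM in yellow and 0.341 FPKM in green, a log2 ratio of 4.02, and c27864_g1, with 15.3 FPKM in yellow, was listed at 0 in green. Just outside, c32266_g1 had 16.02 FPKM in yellow and 0.065 FPKM in green, a log2 ratio that misses 4 in the third decimal, and c5122_g1 had 17.1 FPKM in yellow and 0.138 FPKM in green. Of the 217 unigenes, 89 had a log2 ratio below 4.5. The number inside the limit depends on the constant added before the ratio is taken: 430 unigenes passed with 0.1 and 49 with 5 in place of 1.

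Silence in green was common but not general. Of the 217 unigenes, 56 (25.8%) were listed at 0 in green, 11 lay above 0 and below 0.1 FPKM, 73 between 0.1 and 1 FPKM, 69 between 1 and 10 FPKM, and 8 at 10 FPKM or more. Thus 140 (64.5%) were below 1 FPKM in green. Among all 13324 unigenes of FPKM 10 or more in yellow, 121 (0.908%) were listed at 0 in green. The other 65 of those 121 reached at most 14.6 FPKM in yellow, too low for the ratio limit. The gap between 25.8% and 0.908% is set by the rule, which picks unigenes by a green level far below the yellow one.

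The 56 unigenes listed at 0 in green were of modest level in yellow, between 15.3 and 174 FPKM with a median of 30.4 FPKM. The highest, c21786_g1, had 174 FPKM in yellow and was listed at 0 in green. Next came c16530_g1 with 129 FPKM and c21915_g1 with 126 FPKM in yellow, both at 0 in green. Unigenes c25620_g1, c31978_g1 and c21988_g1 had 111, 85.2 and 77.4 FPKM in yellow, and again 0 in green. In the yellow library these 6 ranked between 808 and 2228. No fold is given for them, since a listed 0 without read numbers sets no lower bound.

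The share listed at 0 in green fell as the yellow level rose. It was 13 of 20 unigenes below 20 FPKM in yellow, 32 of 89 from 20 to 50 FPKM, 7 of 50 from 50 to 100 FPKM, 4 of 51 from 100 to 500 FPKM and 0 of 7 at 500 FPKM or more. At the low end the rule leaves little room above 0 in green. At the high end a unigene may hold several FPKM in green and still pass 16-fold, and all 7 of the most abundant did hold some.

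On FPKM + 1, the largest ratios belonged mostly to unigenes near 0 in green and well expressed in yellow. Their order depends on that scale: by the plain ratio c7103_g1, at 8809, exceeded c30594_g1, at 5769, and with 0.1 in place of 1 c30946_g1, at a log2 ratio of 10.04, passed c40435_g1, at 9.80, while c22384_g1, at 7.69, stood behind several unigenes listed at 0 in green. Unigene c30594_g1 led with 692 FPKM in yellow against 0.12 FPKM in green, a log2 ratio of 9.27, and ranked 126 in the yellow library against 48595 in green. Unigene c40435_g1 had 296 FPKM in yellow against 0.231 FPKM in green, a log2 ratio of 7.91. Unigene c7103_g1 had 247 FPKM in yellow against 0.028 FPKM in green, also a log2 ratio of 7.91, and it is the first row of the deposited table. These 3 unigenes stood among the 500 most abundant in yellow and near the bottom of the transcripts detected in green. Unigene c30946_g1 had 231 FPKM in yellow against 0.12 FPKM in green, a log2 ratio of 7.70. Unigene c21786_g1, described above, is among the 6 highest through its yellow level, being listed at 0 in green. Unigene c22384_g1 differed from these 5 in being clearly present in green, at 4.17 FPKM, against 879 FPKM in yellow, a log2 ratio of 7.41 and a plain ratio of 211.

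Where the green level was at least 1 FPKM, the plain ratio of the FPKM values can be read without an added constant. Over those 77 unigenes it ran from 18.01 to 235 with a median of 34.3, and 8 unigenes reached 100. The highest was that of c28233_g1, singled out after its value was seen, with 474 FPKM in yellow and 2.01 FPKM in green. Across the 161 unigenes above 0 in green, higher levels in yellow went with higher levels in green (Spearman's rho 0.68, a description over unigenes that share both libraries and a rule that ties the levels together).

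**Figure D2:**
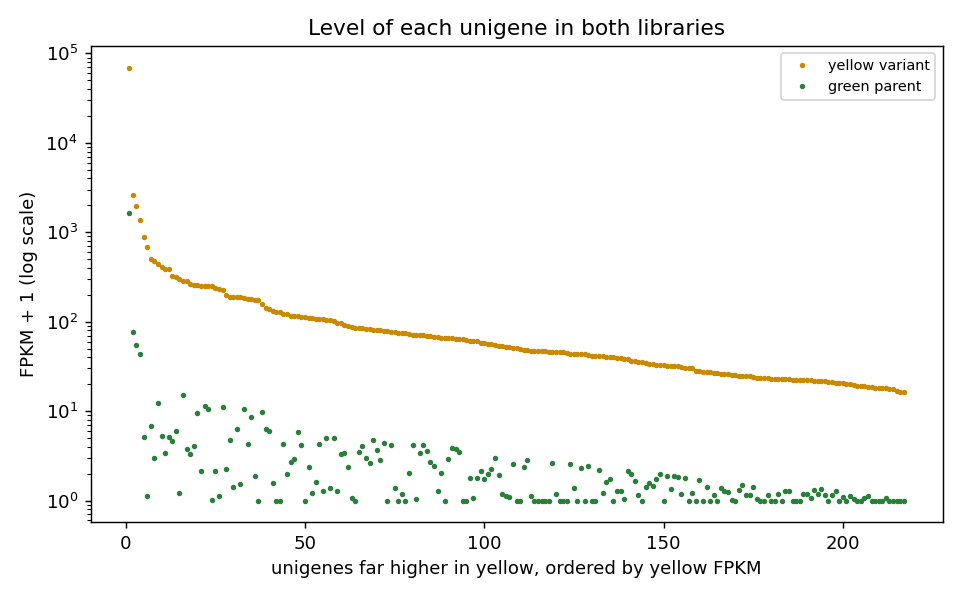
Level of each of the 217 unigenes in the yellow variant and the green parent (vertical axis, FPKM + 1, log scale), ordered along the horizontal axis by their yellow level. The yellow level runs from 69423 to 15.3 FPKM, and the green points of the 56 unigenes listed at 0 lie on the value 1.

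By abundance the group was spread widely through the yellow library and was nearly missing from the upper ranks in green. In yellow, 4 of the 217 were among the 100 most abundant unigenes, 38 among the 1000 most abundant and 139 among the 5000 most abundant. In green these numbers were 1, 1 and 4. The median rank was 3709 in yellow and 46538 in green, where 48915 is the shared rank of all unigenes at 0. The gap in rank between the libraries follows from the rule, which asks for a green level far below the yellow one. In yellow alone, the 217 include middling as well as abundant unigenes of that library.

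Most of the expression of the group lay in 1 unigene. The 217 summed to 94514 FPKM, or 8.83% of the yellow library, against 2100 FPKM, or 0.222% of the green library. Unigene c32783_g3 alone had 69423 FPKM in yellow, where it ranked 1, against 1639 FPKM in green, where it ranked 45. It held 73.5% of the group's sum in yellow and 78.0% in green. Without it the other 216 unigenes took 2.35% of the summed FPKM of the yellow library and 0.0486% of that of the green library. Within those 216, the 20 most abundant were needed to reach 50% of their yellow sum.

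The unigenes behind c32783_g3 in the yellow ranking were also detected in green. Unigene c20013_g1 had 2603 FPKM in yellow and 76.3 FPKM in green. Unigene c21140_g1 had 1970 FPKM in yellow and 54.1 FPKM in green. Unigene c30693_g1 had 1367 FPKM in yellow and 42.2 FPKM in green. Their ranks were 22, 39 and 59 in yellow and 2107, 3131 and 4147 in green. After them came c22384_g1 and c30594_g1, given above.

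The 8 unigenes of at least 10 FPKM in green lay in a narrow band of plain ratios although their levels differed widely. The ratio was 42.4 for c32783_g3, 36.4 for c21140_g1, 34.1 for c20013_g1 and 32.4 for c30693_g1. The other 4, named here after their values were seen, were c20198_g1 at 39.1, c32023_g1 at 24.0, c22238_g1 at 22.2 and c18669_g1 at 20.4. Their green levels ran from 10.1 to 1639 FPKM and their yellow levels from 224 to 69423 FPKM. The lower edge of the band is set by the 16-fold limit, the upper edge is not. The band is not particular to these 8. Over the 77 unigenes of at least 1 FPKM in green, the median plain ratio, 34.3, lies inside it.

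The 217 unigenes came from 206 components. In 153 of these components the unigene had no partner in the table, which is 70.5% of the 217, against 63.8% of the 13324 unigenes of FPKM 10 or more in yellow. The other 64 lay in 53 components of 2 to 7 unigenes. In 6 of the 53 every unigene passed the limit, and in 47 at least 1 did not. Unigenes of a component may be parts or copies of the same transcript and may compete for the same reads, so they are not independent, and the part of either in these values was not tested.

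Of the 217, 20 shared a component with another of the group, in 9 components. That number depends on the size of the group, so it is not set against the larger share among all expressed unigenes. Component c25853 was the only one with more than 2. Its 4 unigenes, c25853_g1, c25853_g2, c25853_g3 and c25853_g4, had 253, 235, 255 and 70.6 FPKM in yellow against 1.13, 1.14, 3.08 and 3.15 FPKM in green. The first 3 were close in yellow, and the fourth was lower there while close to the third in green. Their log2 ratios were 6.89, 6.78, 5.97 and 4.11, and the last drops below the limit, to 3.95, when both libraries are rescaled to equal sums. Together they summed to 813 FPKM in yellow and 8.51 FPKM in green.

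The other 8 such components held 2 of the group each and are named after their values were seen. In c19565 and c20875 all 4 unigenes were listed at 0 in green, with 43.7 and 34.2 FPKM in yellow for c19565_g1 and c19565_g2 and 22.4 and 22.0 FPKM for c20875_g1 and c20875_g2. In c25935 the pair was nearly equal in yellow, 383 FPKM for c25935_g1 and 392 FPKM for c25935_g2, against 4.08 and 2.44 FPKM in green. In c28233 the pair was unequal and reversed its order: c28233_g1 exceeded c28233_g2 in yellow, 474 against 185 FPKM, but lay below it in green, at 2.01 against 9.46 FPKM. The partner of c30594_g1, c30594_g2, had 45.7 FPKM in yellow and 0 in green.

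In these 5 components, as in c25853, every unigene passed the limit, while c31269, c24438 and c30264 also held unigenes outside the group. In c31269, c31269_g1 and c31269_g3 had 113 and 114 FPKM in yellow against 3.24 and 1.95 FPKM in green, beside c31269_g2 at 3.19 FPKM in yellow and 0.055 FPKM in green. In c24438, c24438_g1 and c24438_g2 had 26.2 and 29.3 FPKM in yellow against 0 and 0.203 FPKM in green, and c24438_g3 missed the limit with 19.7 FPKM in yellow and 0.48 FPKM in green. Component c30264 was the most divided: c30264_g1 and c30264_g2 had 29.7 and 71.0 FPKM in yellow against 0.812 and 1.03 FPKM in green, but c30264_g3 had 57.3 FPKM in yellow and 30.2 FPKM in green. With all 6 of its unigenes summed, the log2 ratio was 1.82.

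**Figure D3:**
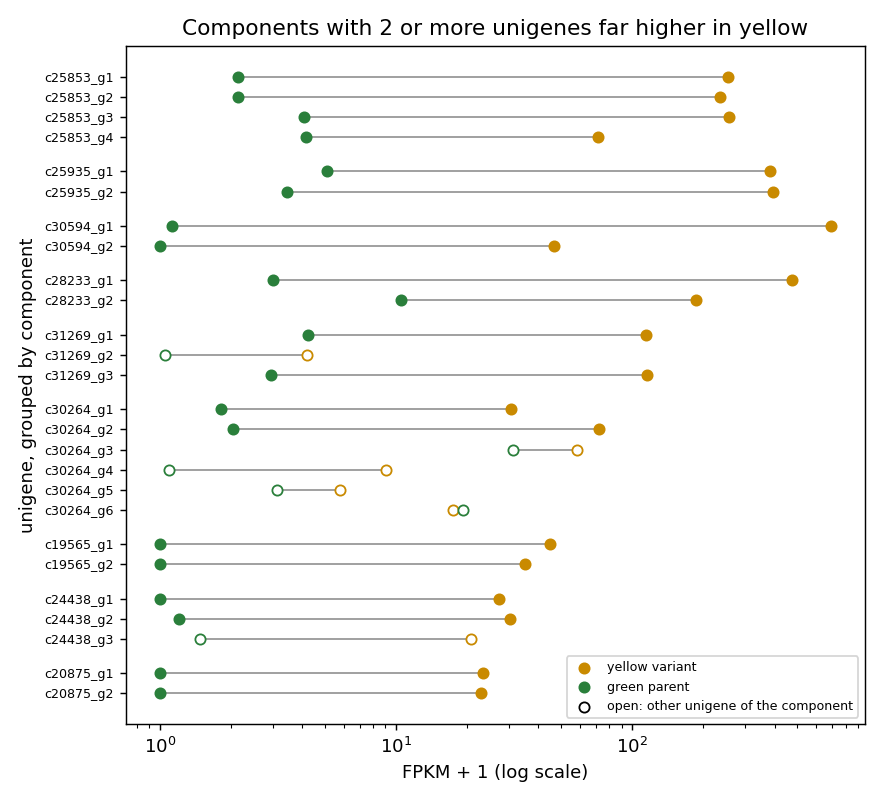
Level of every unigene in the 9 components with at least 2 unigenes far higher in yellow (horizontal axis, FPKM + 1, log scale); filled points are unigenes of the group, open points other unigenes of the same component, and a line joins the yellow and green values. The 4 green values of c19565 and c20875 lie on the value 1, which stands for 0 FPKM.

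The 88 other unigenes of these components were not chosen by the rule, although they come from the same contrast and cannot exceed the limit without joining the group. Of these, 77 reached FPKM 1 in either library. At least 2-fold higher in yellow were 41 of the 77 (53.2%), against 20.0% of all 48181 unigenes of FPKM 1 or more. At least 2-fold lower in yellow were 5 (6.49%), against 15.0% of the 48181. The median log2 ratio was 1.39 for the 77 and 0.05 for the 48181. The log2 ratios of the 77 ran from -2.84 to 3.93. The 48181 were not matched to the 77 by level, and they include unigenes alone in their component.

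Within 2-fold lay 31 of the 77 (40.3%), against 65.0% of the 48181, and these 31 belonged to 20 of the 47 mixed components. The chosen unigenes held a median of 84.2% of the summed FPKM in yellow over the 47 mixed components, and 12.7% in green over the 45 of them that were above 0 there. With the FPKM of all unigenes of a component summed, 25 of the 47 had a log2 ratio of 4 or more and 3 had one below 1. The median log2 ratio of these sums was 4.27. The rule itself favours both results. It picks unigenes by a high ratio and leaves only partners below the limit, and the sums include the chosen unigenes.

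Those 3, named after their values were seen, are c22733, c31901 and c28127. In c22733, c22733_g1 had 101 FPKM in yellow against 3.96 FPKM in green, while c22733_g3 had 635 FPKM in yellow against 460 FPKM in green, and the log2 ratio of the sums was 0.80. In c31901, c31901_g3 had 52.7 FPKM in yellow against 0.922 FPKM in green, beside c31901_g4 at 231 FPKM in yellow and 204 FPKM in green. In c28127 the unigenes moved apart: c28127_g4 had 19.7 FPKM in yellow against 0.267 FPKM in green, and c28127_g6 had 2.10 FPKM in yellow against 21.2 FPKM in green. The summed FPKM of c28127 was nearly equal, 29.5 in yellow and 30.7 in green.

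Component c32783, that of the most abundant unigene, had 7 unigenes. Beside c32783_g3, c32783_g7 had 231 FPKM in yellow and 45.6 FPKM in green, and c32783_g1 had 7.44 FPKM in yellow and 0.406 FPKM in green. Unigene c32783_g4 went the other way, with 1.52 FPKM in yellow and 5.80 FPKM in green. Since c32783_g3 held 99.6% of the component's FPKM in yellow and 96.8% in green, the log2 ratio of the sums, 5.36, was close to that of c32783_g3 itself, 5.40.

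**Figure D4:**
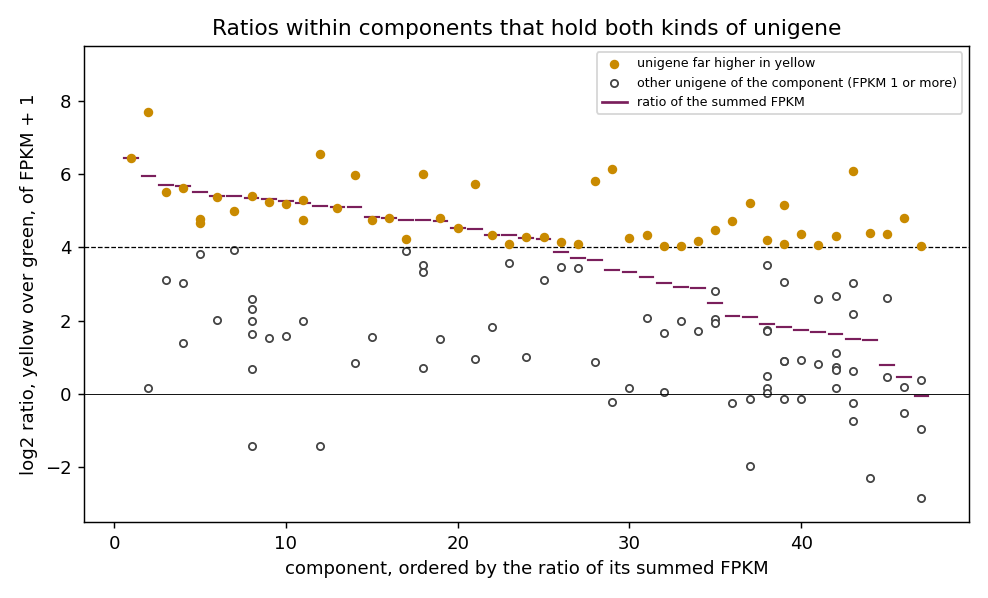
Log2 ratio of yellow over green on FPKM + 1 (vertical axis) for the unigenes of the 47 mixed components, ordered along the horizontal axis by the ratio of their summed FPKM; filled points are unigenes of the group, open points their partners of FPKM 1 or more, short bars the summed FPKM, and the dashed line the limit of 4. The bar lies above the limit in 25 components, and 41 of the 77 partners lie at a log2 ratio of 1 or more.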

How the data were processed

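The authors deposited 1 table of FPKM values, per the file headers, with a row for each unigene, a column for each library and 3 decimals. The submitters' processing notes name CASAVA 1.7, and the labels' protocols give Trizol extraction and standard Illumina library preparation. How the transcripts were assembled, aligned and counted, and their lengths, is not stated there. The columns GL and YL were matched to the libraries by title. FPKM values hold no read numbers, so no count model, interval or detection limit was used, and with 1 library per group nothing was tested. The members and lists were chosen with earlier results of these data known.

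Log2 ratios are yellow over green on FPKM + 1. Ranks run over all 61101 unigenes, with ties at the best rank. Unigenes were named by a rule: the 6 highest log2 ratios, the 6 highest yellow levels, the 6 highest in yellow among those listed at 0 in green, and components with 3 or more members. Others are marked in the text, and the values beside the limit and partners of a named unigene are given too. Alternatives were other added constants, minimum levels, ratio limits and scalings, sums over components, and leaving out the most abundant unigene. The code for the selection and the component counts was run on simulated data. The planted unigenes were set well above the ratio limit and none lay near 0 in green, so this checks the code only. Calculations used Python 3.11.15 with scipy 1.17.1, pandas 2.3.3, numpy 2.4.6 and, for figures, matplotlib 3.10.9.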

Additional observations from a re-analysis of the deposited data

How the results depend on the processing

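Equal sums (TPM), median, trimmed-mean and upper-quartile scaling moved yellow relative to green by -0.17, -0.05, -0.05 and -0.25 on the log2 scale. They left 190, 208, 208 and 165 of the 217 unigenes. Each scaling lowered yellow relative to green, and none added a unigene to the 217. Component sums gave 191 components past the limit. Minimum levels of 5 FPKM or none changed nothing, by construction. The number of unigenes was 430, 371 and 49 with an added constant of 0.1, 0.5 and 5, 108 at a minimum of 50 FPKM, and 509, 84 and 36 at log2 limits of 3, 5 and 6. Those sharing a component with another were 35, 31 and 5 with the constants, 10 at 50 FPKM, and 57, 9 and 4 at the limits. The share listed at 0 in green was 32.6% and 12.2% with constants of 0.5 and 5, 10.2% at 50 FPKM and 33.3% at a limit of 5. The median log2 ratio was 5.88 with a constant of 0.1, and 3.85, 5.82 and 6.44 at the limits of 3, 5 and 6. The share of summed FPKM was 0.779% in yellow and 0.0042% in green at a limit of 6, which leaves out c32783_g3, and 0.364% in green at a limit of 3. Without c32783_g3, and with equal sums, the yellow share was 2.48% and 212 unigenes passed. For the 19 named by the rule, 57 values were taken with constants of 0.1 and 5 and with TPM rescaling. All stayed higher in yellow, which was fixed in advance. A constant cannot reverse the order of 2 levels, and the TPM shift of -0.17 is small beside ratios picked to be large. Of the 57 values, 27 moved by over 1.5-fold, all with another constant. No paired analysis was possible because each group has 1 library, and none could be left out. Unknown read numbers limit every statement on levels near 0 in green.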

Other observations

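The deposited table is not ordered by identifier, and most of the 217 unigenes stand near its top: 72 in the first 100 rows, 181 in the first 500 and 211 in the first 1000. The row number fell as the log2 ratio rose (Spearman's rho -0.63 over the 217, a description). Yet 4 stand far down, after row 2000, and all 4 were listed at 0 in green: c41990_g1 in row 38698 with 18.3 FPKM in yellow, c10774_g1 in row 45748 with 15.7 FPKM, c16590_g1 in row 57100 with 15.4 FPKM and c55289_g1 in row 57998 with 18.2 FPKM. Another 6 of the 217 were listed at 0 in green and lay in the same range of yellow FPKM, 15.4 to 18.3, but stand in rows 35 to 218. Unigenes with nearly the same values in both libraries thus stand at opposite ends of the table, so the row order holds something that FPKM alone does not give. Late rows were not particular to the 217. Of all 121 unigenes at 0 in green and of FPKM 10 or more in yellow, 34 stand after row 2000, against 4 of the 56 in the group. What orders the rows is not stated. These 10 unigenes were picked with their values in view.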
